A study of Mus musculus with 5 samples.

Results

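The coactivator p300 was mapped in MS5 stromal cells under TGF-β1, in the presence or absence of pioglitazone, and the sites described here are those where p300 was listed under both treatments while the AP-1 subunit c-Jun was listed under neither. The peaks of the 4 deposited lists were merged wherever they shared at least 1 bp, which gave 44718 sites. Of these, 6001 (13.4%) held a peak of both p300 lists and no peak of either c-Jun list. They are called the c-Jun-unlisted p300 sites below. They made up 37.0% of the 16216 sites with p300 in both treatments, which are called stable p300 sites. Both names describe the lists and are not tests of binding. Because the sites were chosen by which lists held a peak, their number and their lack of c-Jun are a description.

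p300 is a histone acetyltransferase without sequence-specific DNA binding of its own. It is brought to enhancers and promoters by many transcription factors, and its occupancy is widely used to map active enhancers. c-Jun dimerises with Fos or other Jun proteins into AP-1, which is abundant at enhancers of fibroblasts and stromal cells and can recruit p300. TGF-β1 signals through SMAD proteins, which also use p300 as a coactivator and often act beside AP-1.

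MS5 is an established mouse bone marrow stromal cell line, used here at passage 11. All 4 chromatin immunoprecipitation (ChIP-seq) libraries came from cells given TGF-β1 at 10 ng/mL for 5 h. One p300 and one c-Jun library were from cells given TGF-β1 alone, and one of each from cells also given pioglitazone, a thiazolidinedione agonist of the nuclear receptor PPARγ, at 20 ng/mL. No untreated cells are among the samples, so every site was seen under TGF-β1. A pooled input sample completes the series and was not analysed here. For p300 there were 31466 peaks under TGF-β1 alone and 21994 when pioglitazone was added. For c-Jun there were 17044 and 13325. Each antibody and treatment is 1 library, so differences between treatments have no replicate check, intervals are exact 95% intervals for counting error only, and no p-value is given. Sequencing depth is unknown, and a c-Jun peak that was not called is not shown to be absent. Peaks carry no height. Their row order in the list stood in for strength, although no source used here says what the rows were sorted by. A row-order percentile of 10% means that the peak was in the first 10% of the rows. Positions are in mm9, 1-based. Genes and sequence were not assigned, because the gene and promoter tables at hand are of another build.

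The sites were spread through both p300 lists rather than gathered at their end. Their median row-order percentile was 43.7% (95% interval 42.7 to 44.7) in the p300 list without pioglitazone, with the middle 50% of sites between 25.7% and 64.9%. In the list with pioglitazone the median was 53.5% (52.4 to 54.6), and the middle 50% lay between 31.9% and 74.9%. Sites present in all 4 lists stood far higher, with medians of 16.2% and 24.4% over 5762 sites. Sites with p300 in both treatments and c-Jun in only 1 lay between, at 29.2% without pioglitazone for the 3216 sites with c-Jun under TGF-β1 alone and at 36.7% for the 1237 with c-Jun under pioglitazone only.

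The share of stable p300 sites that lacked c-Jun rose from step to step down the list without pioglitazone. In its first 10%, 362 of 3038 stable sites lacked c-Jun, 11.9% (10.8 to 13.1). The share was 25.2% (23.6 to 26.8) in the second step and 47.3% (44.9 to 49.7) in the fifth. In the last 10% it reached 67.1% (62.4 to 71.5), or 285 of 425 sites. With pioglitazone the share went from 13.3% (11.8 to 14.8) in the first step to 55.0% (51.8 to 58.2) in the last. Without read counts, less c-Jun at the later rows and c-Jun that was present but not called cannot be told apart.

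**Figure D1:**
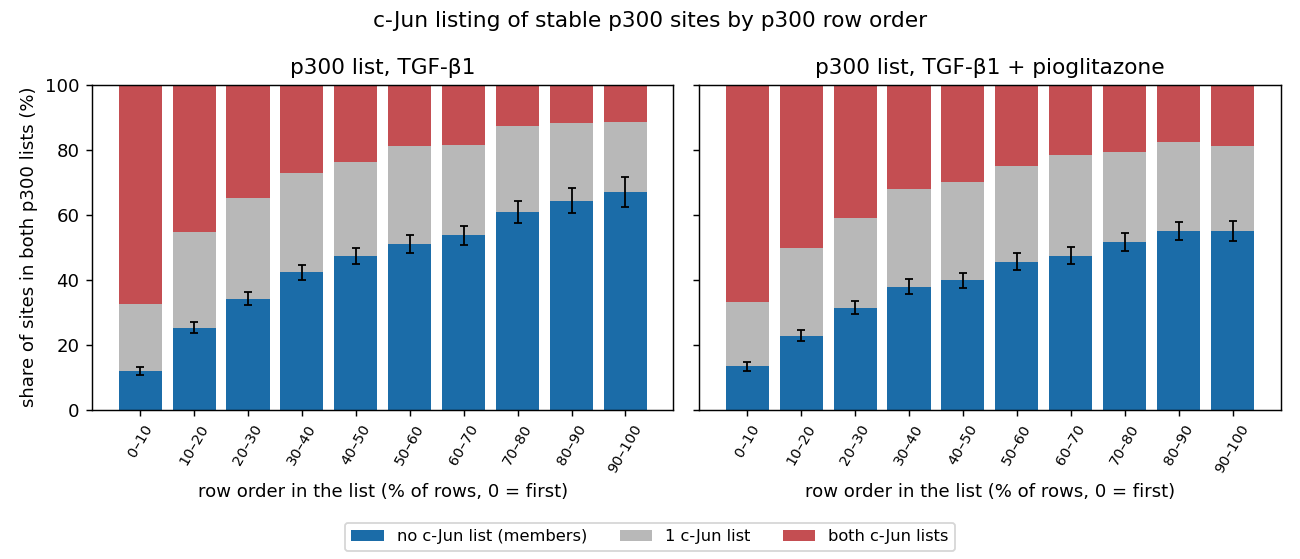
Bars show the share (%) of sites with p300 in both treatments that held no c-Jun peak, a peak of 1 c-Jun list or peaks of both, in steps of 10% of the rows of each p300 list (left, TGF-β1; right, TGF-β1 with pioglitazone); black bars are exact 95% intervals of the lowest segment. The share without c-Jun climbs from 11.9% to 67.1% on the left and from 13.3% to 55.0% on the right.

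A small group nonetheless stood at the head of both lists. Of the 1918 stable sites in the first 10% of both p300 lists, 225 lacked c-Jun, 11.7% (10.3 to 13.3), and 1327 had it in both treatments. The 10 c-Jun-unlisted sites with the lowest mean percentile were all within the first 171 rows without pioglitazone and the first 73 with it. Their positions are given with the distance between peak centres and the nearest c-Jun peak of either treatment.

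The first by row order was chr10:88193857-88194151, at row 25 of the p300 list without pioglitazone and row 5 with it. c-Jun was listed 2847 bp away without pioglitazone and 2854 bp away with it, so a c-Jun peak lay nearby in both treatments but outside the p300 site. The site chr7:20147540-20147786 stood at rows 18 and 10. Its p300 centres in the 2 treatments were 4 bp apart. The nearest c-Jun peak was 10851 bp away without pioglitazone and 202736 bp away with it.

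The site chr2:90894204-90894453 was at rows 21 and 13, with c-Jun no nearer than 16163.5 bp and another c-Jun-unlisted site 7827.5 bp away. The site chr17:25252671-25252917 was at rows 40 and 22, with c-Jun 17730.5 bp away. At chr6:126889628-126889908, rows 76 and 25, the nearest c-Jun peak was 90582 bp away. The next stable p300 site was 117744 bp from it, and for the chromosome 7 site it was 121668 bp away.

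In the other 5, c-Jun was listed 366 to 5893 bp away. At chr2:173087098-173087407 (rows 89 and 51) c-Jun was listed 2042.5 bp away and at chrX:166418970-166419250 (rows 60 and 73) 5893 bp away. At chr2:151741944-151742190 (rows 151 and 50) the distance was 2065.5 bp. In 2 sites the nearby c-Jun peak was listed under TGF-β1 alone. At chr15:68090255-68090505, rows 171 and 21, c-Jun was 366 bp away without pioglitazone and 69294 bp away with it. At chr1:133806655-133806901, rows 149 and 56, the distances were 542.5 and 32522.5 bp. Of the 10 sites, 9 had a lower row number, nearer the head, with pioglitazone, in a list that is shorter.

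Because the rule asks that the p300 peaks of both treatments overlap, their centres could lie only so far apart, and the largest distance was 236 bp. Sites in all 4 lists could also be joined through c-Jun peaks, and there it reached 485 bp. At the c-Jun-unlisted sites the median distance between the p300 centres with and without pioglitazone was 43 bp (42 to 45), with the middle 50% between 20 and 80 bp. The merged sites were 247 to 473 bp wide, with a median of 280 bp, and none held more than 1 p300 peak of a list. The centres lay within 50 bp of each other at 56.4% (55.1 to 57.7) of the c-Jun-unlisted sites, against 61.0% of all stable sites and 66.5% (65.3 to 67.7) of the sites in all 4 lists. Sites low in the lists had wider offsets. Within 10-point steps of the mean row-order percentile, the c-Jun-unlisted sites differed from the sites in all 4 lists by 0.498 percentage points (-1.42 to 2.42), an interval that includes 0. For centres within 100 bp of each other the difference was 2.07 points (0.700 to 3.44), which is not independent of the narrower limit on these sites. When sites were matched by centres within 100 bp instead of by overlap, the difference within 50 bp was -4.70 points (-6.70 to -2.71). Under that matching, sites in all 4 lists also needed both c-Jun centres within 100 bp of the p300 centre. That value is therefore not independent of the rule either.

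Over the whole lists, row order in 1 treatment went with row order in the other less tightly at these sites than at the sites in all 4 lists. Across the 6001 sites, Spearman's rho between the percentiles in the 2 p300 lists was 0.71, and across the 5762 sites in all 4 lists it was 0.86. Among sites in the first 50% of the list without pioglitazone the values were 0.66 (n = 3486) and 0.84 (n = 5060), and among those in the last 50% they were 0.28 (n = 2515) and 0.25 (n = 702). Stable sites with c-Jun in only 1 treatment also had lower values over the whole lists. There rho was 0.78 with c-Jun under TGF-β1 alone and 0.72 with c-Jun under pioglitazone only, the latter close to the c-Jun-unlisted sites. These correlations are across sites of the same libraries and are descriptions only.

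**Figure D2:**
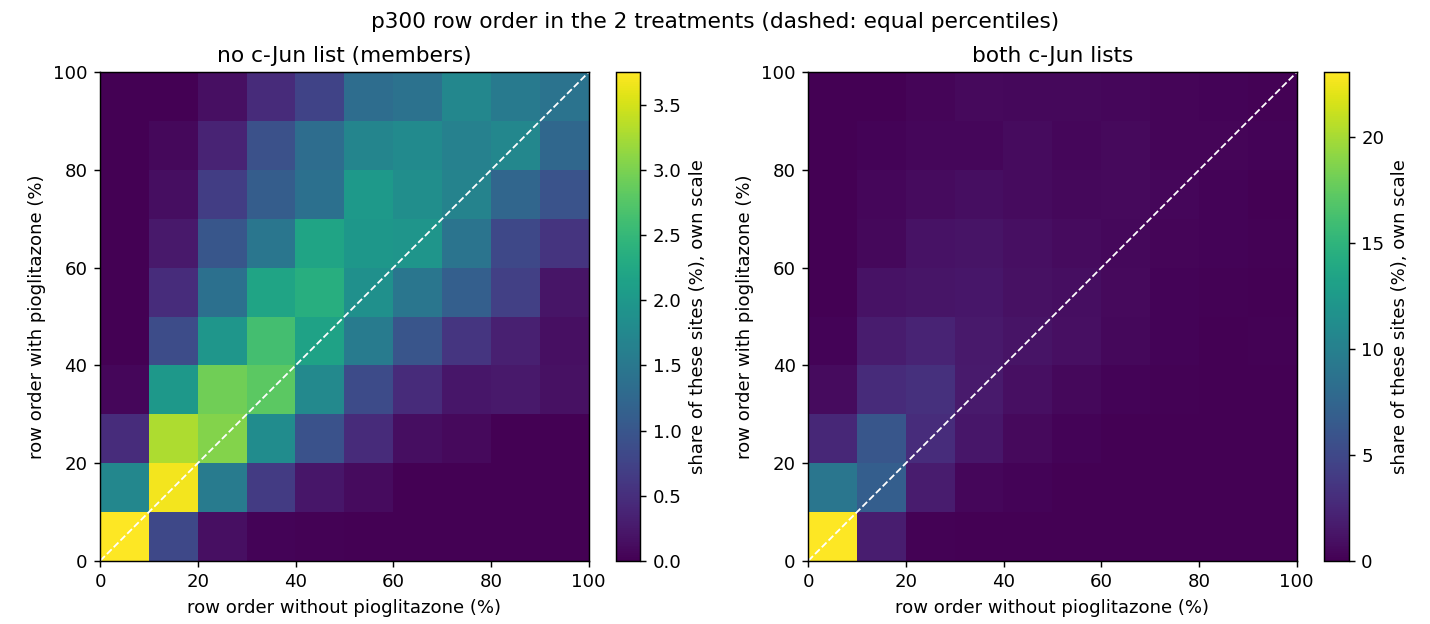
Each square gives the share (%) of sites by row-order percentile of the p300 peak without pioglitazone (x) and with it (y), for the c-Jun-unlisted sites (left) and the sites in all 4 lists (right), on separate colour scales; the dashed line marks equal percentiles. The corner at the head of both lists holds 3.75% of the c-Jun-unlisted sites and 23.0% of the sites in all 4 lists.

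Since the p300 list with pioglitazone is shorter, percentiles of the 2 lists are not on the same footing, and each stable site was also ranked among the 16216 stable sites in each treatment. On that scale the c-Jun-unlisted sites moved slightly towards the head of the list with pioglitazone. Their median rank went from 66.5% to 63.6%, and the median change per site was -2.36 points (-2.81 to -1.95), where a negative value means nearer the head. For the sites in all 4 lists the median change was 0.777 points (0.487 to 1.02). A rank further from the head with pioglitazone was seen at 43.1% (41.8 to 44.4) of the c-Jun-unlisted sites, at 49.3% of all stable sites and at 55.2% (53.9 to 56.5) of the sites in all 4 lists. Within steps of the mean rank the difference from the sites in all 4 lists was -13.2 points (-15.2 to -11.2). The sites with c-Jun in 1 treatment fell on either side: the median change was 0.697 points (0.111 to 1.38) where c-Jun was listed under TGF-β1 alone, and -1.93 (-3.11 to -0.863) where it was listed with pioglitazone only. Ranks are relative, so a rise of one class is a fall of another, and the comparison rests on 1 p300 library per treatment.

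The size of the change in rank varied. The rank among stable sites changed by no more than 10 points at 46.4% (45.2 to 47.7) of the c-Jun-unlisted sites. It changed by over 20 points at 1577 of them, 26.3% (25.2 to 27.4), beside 24.5% of all stable sites and 21.2% (20.1 to 22.3) of the sites in all 4 lists. Within steps of the mean rank the difference from the latter turned to -4.08 points (-5.75 to -2.40). Of the 1577 sites, 957 moved towards the head with pioglitazone and 620 away from it. Only 67 sites moved by over 50 points.

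The sites with the largest moves in row-order percentile were distributed over many chromosomes. Those nearer the head with pioglitazone were led by chr1:59039408-59039741, from row 31425 of 31466 without pioglitazone to row 7660 of 21994 with it. The next were chr6:5459782-5460120 (rows 29302 and 7105), chr11:105043506-105043758 (rows 30430 and 8693), chr11:107409212-107409625 (rows 30431 and 8696) and chr18:76364269-76364523 (rows 27741 and 7019). None of these 5 had c-Jun within 8855 bp. Those further from the head with pioglitazone were led by chr3:129776032-129776323, from row 6310 to row 21196. A c-Jun peak lay 307.5 bp from that site without pioglitazone, and the nearest one with it was 7610.5 bp away. The others were chr12:9467098-9467374 (rows 7369 and 21014), chr3:37241926-37242264 (rows 8183 and 21446), chr9:116151384-116151697 (rows 8823 and 21692) and chr4:58483128-58483374 (rows 5130 and 18992). These 10 sites were named for their change, which is a description.

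c-Jun was listed within reach of many of the sites without overlapping them. The nearest c-Jun peak of either treatment lay at a median of 13976.5 bp (13374.5 to 14521.5) from the site, centre to centre, with the middle 50% between 5158 and 34892 bp. It was within 500 bp at 232 sites, 3.87% (3.39 to 4.39), within 1 kb at 520, within 10 kb at 2452, 40.9% (39.6 to 42.1), and further than 100 kb at 370, 6.17% (5.57 to 6.80). The median was 18985.5 bp to the nearest c-Jun peak without pioglitazone and 25070 bp to the nearest with it. The second list is shorter. Of the 520 sites with c-Jun within 1 kb, 226 had it under TGF-β1 alone, 125 with pioglitazone only and 169 in both.

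The 5 sites furthest from c-Jun among those in the first 10% of both p300 lists were 79010 to 157984 bp from it. They were chr10:58067610-58067857 (rows 1133 and 377, 157984 bp), chr18:80853400-80853646 (rows 796 and 1688, 101778 bp), chr14:31892592-31892838 (rows 1414 and 733, 97178 bp), chr2:32102401-32102677 (rows 823 and 1893, 79010 bp) and the chr6:126889628-126889908 site described above. The chromosome 18 site had a second c-Jun-unlisted site 941.5 bp away, and the one on chromosome 14 had one 9185 bp away. Neither treatment gave a c-Jun peak nearer than these distances.

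At the other edge, the rule separates sites by a few base pairs. The c-Jun peak abutted or lay 1 bp from the sites chr6:49269193-49269473, chr15:102225401-102225664 and chr2:170156316-170156597, in each case under pioglitazone only. Stable sites left out by an overlap of 1 to 3 bp were chr5:4640831-4641325, chr1:91004859-91005409 and chr3:57972404-57972984. In all, 132 of the 6001 sites (2.20%) had a c-Jun peak within 100 bp edge to edge. Of the other 10215 stable sites, 276 (2.70%) owed their c-Jun label to an overlap of at most 100 bp.

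Lists of p300 sites without c-Jun in only 1 treatment offer a further comparison. Within 10 kb, c-Jun was found at 40.9% of the stable c-Jun-unlisted sites and at 34.4% (33.5 to 35.2) of the 11485 sites listed for p300 under TGF-β1 alone and without c-Jun. The latter stood lower in the p300 list, and within steps of that list the difference turned to -3.64 points (-5.29 to -1.99). Sites listed for p300 with pioglitazone only, 4755 in number, more often had c-Jun close by. A c-Jun peak was within 1 kb of 15.4% (14.3 to 16.4) of them and of 8.65% (7.95 to 9.39) of the stable c-Jun-unlisted sites, measured from the p300 peak with pioglitazone. Within steps of that p300 list the difference was -9.50 points (-10.8 to -8.18). Within steps, stable c-Jun-unlisted sites thus had c-Jun within 1 kb less often than p300 sites listed with pioglitazone only. At 10 kb the shares were 40.9% and 41.2% (39.8 to 42.6), and within steps the difference was -6.72 points (-8.68 to -4.77). Median distances to c-Jun were close, at 13983 and 14345 bp, with row order not adjusted for. Against sites listed under TGF-β1 alone, the share within steps was somewhat lower at 10 kb. At 1 kb that difference was -0.799 points (-1.75 to 0.150), an interval that includes 0.

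**Figure D3:**
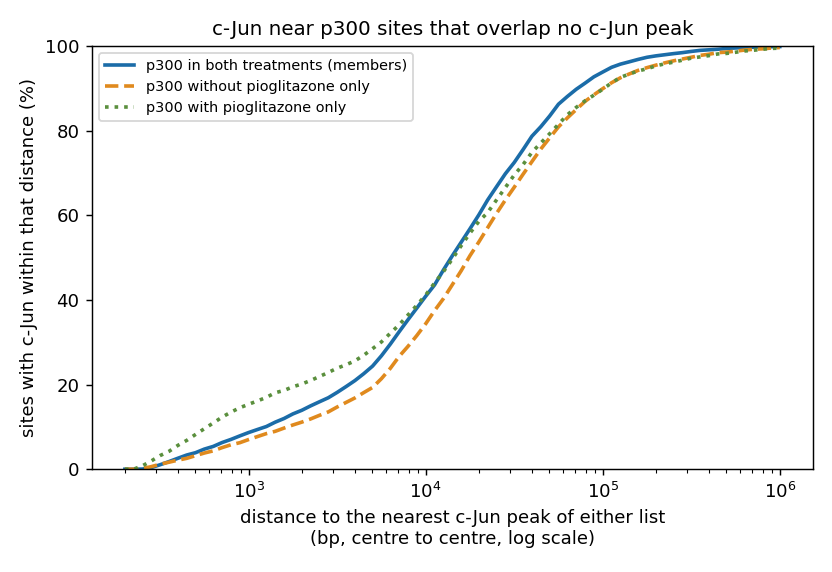
Curves give the share (%) of p300 sites that overlap no c-Jun peak and have one within a given distance (bp, centre to centre, log scale), for sites with p300 in both treatments, without pioglitazone only and with pioglitazone only; row order is not adjusted for. At 1 kb the dotted curve of sites listed with pioglitazone only is highest, at 15.4%.

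Neighbours were about as frequent around these sites as around sites with both factors, and more frequent at equal row order. To count both kinds alike, c-Jun peaks with a centre within 500 bp of the site were passed over. Another c-Jun peak was within 10 kb of 38.5% (37.2 to 39.7) of the c-Jun-unlisted sites and of 38.7% (37.4 to 40.0) of the sites in all 4 lists, beside 39.2% of all stable sites. The difference was -0.224 points (-2.00 to 1.55). Sites near the head of the lists have more neighbours of either kind. Within steps of row order the c-Jun-unlisted sites had c-Jun within 10 kb more often than the sites in all 4 lists, by 8.14 points (6.23 to 10.1). In the step from 20% to 30%, for example, the shares were 45.6% (41.8 to 49.5) of 669 sites and 34.2% (30.9 to 37.6) of 793. The difference was 7.33 points (5.50 to 9.16) for c-Jun peaks without pioglitazone and 7.30 (5.57 to 9.03) for those with it.

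Other stable p300 sites gave a similar pattern. One was within 10 kb of 32.3% (31.2 to 33.5) of the c-Jun-unlisted sites and of 33.5% (32.3 to 34.8) of the sites in all 4 lists, beside 32.8% of all stable sites. Within steps the difference from the sites in all 4 lists was 9.60 points (7.78 to 11.4), and from all other stable sites 6.90 (5.37 to 8.42). No such excess within steps was seen over p300 sites without c-Jun in only 1 treatment. With p300 under TGF-β1 alone, 25.3% had a stable p300 site within 10 kb, and the difference within steps was -4.55 points (-6.07 to -3.03). With p300 under pioglitazone only, 26.5% did, and the difference was -1.01 (-2.80 to 0.788). The excess over the sites in all 4 lists was not the same at all ranges. For c-Jun it was 10.2 points (8.62 to 11.7) between 500 bp and 5 kb, 1.10 (-0.597 to 2.79) between 5 and 10 kb, and 3.69 (1.96 to 5.42) between 10 and 50 kb. For stable p300 sites it was 8.03 (6.62 to 9.44), 4.42 (2.81 to 6.03) and 5.62 (3.76 to 7.48) over the same ranges. The spacing rules of the peak caller are unknown, and their part in these values was not tested. Neighbouring sites share their surroundings, but the intervals treat sites as independent and are therefore too narrow.

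**Figure D4:**
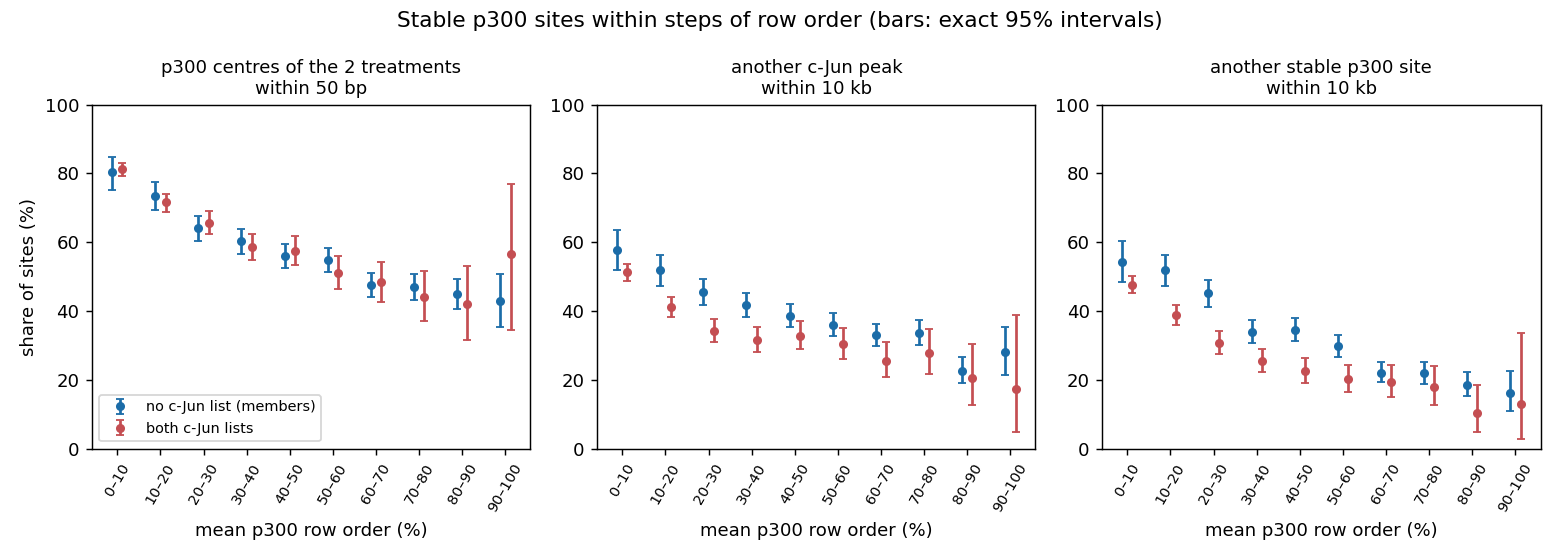
Points give the share (%) of sites, with exact 95% intervals, in steps of the mean p300 row-order percentile, for the c-Jun-unlisted sites and the sites in all 4 lists. Offsets between treatments lie together in the left panel. In the other panels the c-Jun-unlisted sites lie above in every step (45.6% against 34.2% for c-Jun in the step from 20% to 30%). There the intervals overlap in the first step and past 60% of row order.

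c-Jun-unlisted sites had another c-Jun-unlisted site as their nearest stable neighbour slightly more often than the sites in all 4 lists did. The nearest stable p300 neighbour also lacked c-Jun at 39.6% (38.4 to 40.8) of them and at 35.0% (33.8 to 36.3) of the sites in all 4 lists, beside 37.0% of all stable sites. The difference was 3.54 points (1.59 to 5.49) within steps of row order, but 1.75 (-0.452 to 3.95) with centres within 100 bp and 1.87 (-0.193 to 3.93) at equal list lengths, where the intervals include 0. Among sites whose neighbour was within 10 kb the shares were 39.8% (37.6 to 42.0) and 35.7% (33.6 to 37.9), 4.11 points apart (1.02 to 7.19). Within steps that difference was 0.509 points (-2.93 to 3.95), an interval that includes 0. Against all other stable sites with a neighbour at that range it was 4.90 points (2.17 to 7.64), and 2.79 (-0.0840 to 5.67) within steps.

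Most of the sites had no other c-Jun-unlisted site close by. When neighbours no more than 10 kb apart were joined, 5118 of the 6001 (85.3%) had no other c-Jun-unlisted site beside them, and 883 (14.7%) fell into 419 groups, of which 381 were pairs. Only c-Jun-unlisted sites, 37.0% of stable sites, were joined, and other classes were not grouped for comparison. A stable p300 site of any class was within 10 kb of 32.3% of the c-Jun-unlisted sites, near the 32.8% of all stable sites. The largest 2 groups held 5 sites each. One spanned chr1:134230316-134252027, where p300 had 6 peaks in both treatments and c-Jun had 1 in both, at the single site in all 4 lists. The other spanned chr7:117405321-117433642, again with 6 p300 peaks and 1 c-Jun peak per treatment. Groups of 4 lay at chr3:65167245-65185265 and chr8:113332484-113346202, where every p300 peak belonged to the group and neither treatment listed c-Jun. The group of 4 at chr7:132694665-132709540 had 4 p300 peaks in each treatment and 1 c-Jun peak, with pioglitazone only.

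These groups did not consist of late rows alone. On chromosome 3 the site chr3:65178687-65178933 was at row 4072 without and row 1561 with pioglitazone, while its neighbour chr3:65167245-65167515 was at rows 22100 and 7281. On chromosome 8 the site chr8:113333857-113334108 was at rows 4819 and 2388. On chromosome 1 the site chr1:134230316-134230592 was at rows 5184 and 2746. All 4 sites of the chromosome 3 group were at a lower percentile, nearer the head, with pioglitazone.

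The sites occurred on every chromosome in near proportion to stable p300 sites. Chromosome 2 held 457 of them and chromosome 1 held 455. The share of stable sites without c-Jun was highest on chromosome 4, at 43.3% (39.6 to 47.1) of 683, and lowest on chromosome 13, at 33.7% (30.6 to 37.0) of 869, leaving aside the Y with its single stable site. Stable sites on chromosome 4 stood low in the lists, and within steps of row order its difference from the other chromosomes was 0.657 points (-2.92 to 4.24). The chromosomes whose intervals within steps excluded 0 were 19 with 5.74 points (1.77 to 9.72), 16 with 3.79 (0.179 to 7.39), 10 with 3.79 (0.978 to 6.59), 3 with -4.86 (-7.81 to -1.91), 13 with -4.73 (-7.79 to -1.67) and X with -6.46 (-11.6 to -1.35). These intervals are not adjusted for the number of chromosomes. For chromosome 16 the interval included 0 under 4 of the 5 other settings, for example 1.74 points (-2.16 to 5.64) with centres within 100 bp, and for chromosome 10 it did so with centres within 100 bp, 3.03 (-0.0404 to 6.09), and at equal list lengths, 2.41 (-0.491 to 5.31). It also included 0 with centres within 100 bp for chromosomes 19, at 2.83 (-1.44 to 7.10), and X, at -4.96 (-10.6 to 0.708), and with the first 50% of rows for chromosome 3, at -3.30 (-7.65 to 1.06). The signs for chromosomes 10, 13, 19 and X turned when only the first 50% of the rows of each list were used. The values were then -3.30 (-6.64 to 0.0334), 0.941 (-3.47 to 5.36), -2.10 (-6.80 to 2.61) and 20.5 points (11.7 to 29.3). The X also turned at equal list lengths, to 1.88 points (-4.12 to 7.87). Of these turned values, only the X with the first 50% of rows had an interval that excluded 0. Some sites of 1 chromosome stood at adjacent rows. Examples are rows 30430 and 30431 without pioglitazone on chromosome 11, and rows 11679 and 11680 with it on chromosome 7. Leaving aside the Y, the median mean row-order percentile of stable sites ran from 25.8% on chromosome 10 to 60.3% on the X. Whether the sorting of the rows itself partly follows chromosome was not tested, so steps and cuts of rows may not treat chromosomes alike.

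**Figure D5:**
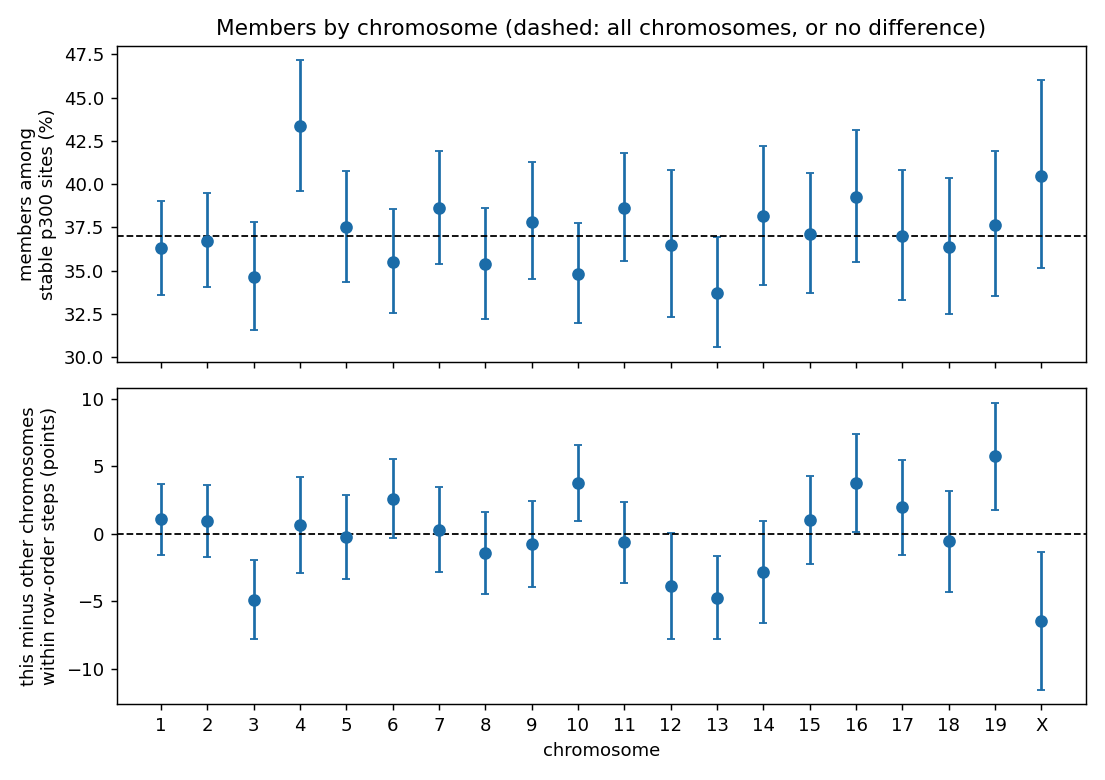
Upper panel: share (%) of stable p300 sites that lacked c-Jun on each chromosome, with exact 95% intervals and the share over all chromosomes (37.0%) as a dashed line; lower panel: difference in percentage points from the other chromosomes within steps of row order, with 95% intervals. Chromosome 4 is highest above (43.3%) and lies near 0 below (0.657 points).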

How the data were processed

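The 4 peak lists, 1 per ChIP library (p300 or c-Jun, TGF-β1 with or without pioglitazone), were used. Build mm9 is named per the submitters' processing notes, along with HOMER, SAMtools (version 1.9) and Bowtie2 (version 2.3.4.3). What each did, how peaks were called and whether the input was used is not given in those notes as used here. The score that the authors deposited is 1 for every peak and was not used. All peaks of a list have 1 width (247, 227, 249 and 235 bp). Between 42 and 103 peaks per list lay past the last gene of chromosome 7 in the GRCm38 gene table, so that table and its promoter sequences were not joined to the peaks. The planned promoter and AP-1 motif comparisons were not run. A comparison of whether peaks around the sites were kept between treatments, added after seeing the data, was run and left out, because passing over peaks at the sites removes most kept peaks by construction.

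Peaks were merged at 1 bp of overlap in Python (version 3.11.15, numpy 2.4.6, pandas 2.3.3, scipy 1.17.1). bedtools (version 2.31.1) gave the same number of sites in 15 of 15 combinations of lists. Row order and the number in each peak's name went together, with a rank correlation of at least 0.823 on each chromosome with over 10 peaks. Shares carry exact Clopper-Pearson 95% intervals, medians binomial ones, and differences within 10 steps Mantel-Haenszel intervals. On simulated outcomes placed on the 11763 real sites compared, a true difference of 5 points came out at 5.05 on average, and 188 of 200 intervals held it. Those outcomes were drawn independently for each site from the same steps, so they check the computation only. They do not show that the intervals are wide enough for real neighbouring sites. The sites named are the 10 with the lowest mean percentile, the 5 with the largest change in each direction among sites in the first 50% of either p300 list, the 5 largest groups, the 5 furthest from c-Jun in the first 10% of both lists, and 3 on each side of the overlap rule. Single sites of the largest groups were named after their values were seen. Sites and lists were chosen with earlier results of these data known.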

Additional observations from a re-analysis of the deposited data

How the results depend on the processing

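In all, 5 other settings were run for 18 results. Of the 90 values, 60 stayed within the interval of the main value or, for counts, within 1.5 times it, 25 moved, and 5 changed sign from an interval that had excluded 0. The offset difference, whose interval includes 0, also changed sign in 2 settings (-4.70 with centres within 100 bp, -0.509 with the first 50% of rows). With only the first 50% of the rows of each list, 3722 sites met the rule, at 41.7% of stable sites. Their median mean percentile was 25.9%, with a c-Jun distance of 21940.8 bp and an offset of 34 bp. The c-Jun lists were cut too, so sites with c-Jun only in later rows could enter this set. Only 3486 of the main sites had p300 in the first 50% of the list without pioglitazone, so the 3722 are partly other sites. Their share and distance refer to the shortened c-Jun lists. With this cut, 16.8% had another such site within 10 kb (14.7% with all rows), the excess of c-Jun within 10 kb was 5.03 points and the difference in rank change -15.5 points. Chromosomes 10, 13, 19 and X then turned to -3.30, 0.941, -2.10 and 20.5 points, and only the interval for X excluded 0. At equal list lengths the percentile was 43.3%, the distance 14677 bp, the offset 40 bp and X 1.88 points (-4.12 to 7.87). With an overlap of 50% of the shorter peak the share was 38.0%, the percentile 47.8%, the distance 12319.5 bp, the offset 37 bp and the rank difference -16.1 points. With centres within 100 bp these were 41.2%, 46.3%, 10332 bp, 35 bp and -17.7 points. With c-Jun also excluded within 500 bp the share was 34.5% and the distance 15725.5 bp. Rows were cut by construction in the first 2 settings, and the cause of the other shifts was not tested. Of the 27 named single sites, between 17 (first 50% of rows) and 26 (overlap of 50%) still met the rule. No paired analysis was possible because each group is 1 library and the labels give no replicate numbers. The settings for spacing, neighbours, ranks and chromosomes, and the distance ranges, were chosen after seeing the data. Depth is unknown and limits what a missing c-Jun peak shows.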
